A study of Mus musculus with 36 samples.

Results

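Bile acid synthesis and transport was followed through 10 genes, chosen by name for their known roles: the enzymes Cyp7a1, Cyp8b1, Cyp27a1 and Cyp7b1, the canalicular pumps Abcb11 and Abcb4, the uptake carriers Slc10a1 and Slco1b2, and the regulators Nr1h4 and Nr0b2. They are 10 of the 52230 genes counted. All 10 were found in the files, and 8 of them had enough reads to be tested in any comparison. Cyp7a1 and Nr0b2 did not.

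RNA was sequenced from 36 hepatocyte cultures of 3 female mice of the line GCKR-P446L-EMI-B6N, aged 14 weeks, in 10 conditions. The labels give the genotype Gckr-446L for mice 1 and 2 and Gckr-446P/L for mouse 3. The methods of the study describe the animals as homozygous for 446L, so the genotype of mouse 3 is unsettled here. GKRP, encoded by Gckr, is the regulatory protein that binds glucokinase (GK) and holds it in the nucleus, and the study states that hepatocytes of these mice do not hold their own GK there. Cultures were kept for 24 h at 5 mM glucose with 10 nM insulin and 10 nM dexamethasone, and then 4 h at 25 mM glucose. They were either untreated or received an adenoviral vector for human GKRP-446P (hP), human GKRP-446L (hL), mouse GKRP-446P (mP) or mouse GKRP-446L (mL), at endogenous GK. The same 5 conditions were repeated with a GK vector (GK, GK+hP, GK+hL, GK+mP, GK+mL). No group carried an empty vector, so an effect of GKRP or GK and an effect of the virus cannot be told apart in a comparison with untreated hepatocytes. The same holds where GKRP vectors with GK are compared with GK alone, since those cultures received a further vector. Untreated hepatocytes and GK overexpression alone had 2 cultures per mouse, which were summed, and each condition therefore had n = 3 mice.

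Hepatocytes make bile acids from cholesterol. Cyp7a1 starts the classical route and sets its rate, and Cyp8b1 decides how much of the product becomes cholic acid. Cyp27a1, a mitochondrial sterol hydroxylase, and Cyp7b1, an oxysterol hydroxylase, serve the alternative route. Slc10a1 (NTCP) and Slco1b2 take bile acids up from the blood, Abcb11 (the bile salt export pump) moves them into the canaliculus, and Abcb4 moves phosphatidylcholine into bile. Nr1h4 encodes FXR, the nuclear receptor that senses bile acids, and Nr0b2 encodes SHP, a repressor that FXR induces.

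Libraries held between 3924674 and 10046158 reads (median 5980276). Of the 7 genes of the bile duct list, 4 were near 0 in all 30 samples: Cftr reached at most 0.234 CPM (counts scaled to a library of fixed size, after normalization), Krt7 0.523 CPM, Epcam 1.47 CPM and Krt19 2.04 CPM. The other 3 were detected in every sample, Sox9 between 6.5 and 20 CPM, Spp1 between 6.09 and 228 CPM and Slc10a2 between 32 and 85.5 CPM. The hepatocyte list (8 genes, among them Alb and Apob) summed to between 73337 and 139586 CPM. Gckr was between 9010 and 23053 CPM in the 12 samples with a mouse GKRP vector and between 39.2 and 119 CPM in 17 of the other 18. The exception was GK overexpression alone in mouse 3, at 845 CPM, because 1 of its 2 cultures had 1425 CPM and the other 96.2 CPM. For GK alone against endogenous GK or untreated hepatocytes, and for the 4 vectors with GK against GK alone, Abcb4 is also given without that culture. Its values for single vectors against GK alone, and for the difference between GKRP effects, are given with the culture only. Without the culture and without the mouse as a block 0 members were called in any comparison. Human GKRP has no transcript in the mouse reference, so the human vectors were not checked.

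The levels of the 10 genes spanned several orders of magnitude. Levels of different genes were compared in untreated hepatocytes on the deposited TPM, which is corrected for transcript length. Cyp27a1 led at 83.2 ± 36.5 TPM (SD, n = 3), and its lowest mouse (61.1 TPM) lay above the highest mouse of the next gene, Abcb4 (41.3 TPM). Abcb4 was at 19.0 ± 19.3 TPM, Slc10a1 at 12.2 ± 7.36 TPM, Nr1h4 at 11.1 ± 9.19 TPM, Abcb11 at 8.68 ± 2.84 TPM and Slco1b2 at 7.19 ± 4.79 TPM. These 5 genes overlapped, so their order cannot be told from 3 mice. Cyp7b1 was lower at 2.02 ± 0.28 TPM and still overlapped Slco1b2, whose lowest mouse was at 1.99 TPM. Cyp8b1 was at 0.540 ± 0.469 TPM, below Cyp7b1 in every mouse, and Nr0b2 at 0.237 ± 0.0817 TPM.

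Cyp7a1, the rate-setting enzyme, was hardly detected. Its 12 reads were spread over 12 of the 30 samples, with at most 1 read in any of them. A count of 3 reads, taken here as the lower limit, corresponds to between 0.203 and 0.768 CPM depending on the library, and Cyp7a1 was under that limit in all 30 samples. No fold change was computed for it, and a change between conditions was not detectable at this depth. Such limits cover counting error only.

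Nr0b2 had 93 reads in 26 of the 30 samples. In untreated hepatocytes it had 3 reads in each mouse (0.297, 0.225 and 0.224 CPM). The highest values were 1.53 CPM with GK+mP in mouse 1 (10 reads), 1.23 CPM with hL in mouse 3 (9 reads) and 1.17 CPM with hL in mouse 1 (5 reads), while hL in mouse 2 had 0 reads. The 3 mice of hL thus ran from 0 to the second highest value of the series, and no order of the conditions could be read from this gene.

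**Figure D1:**
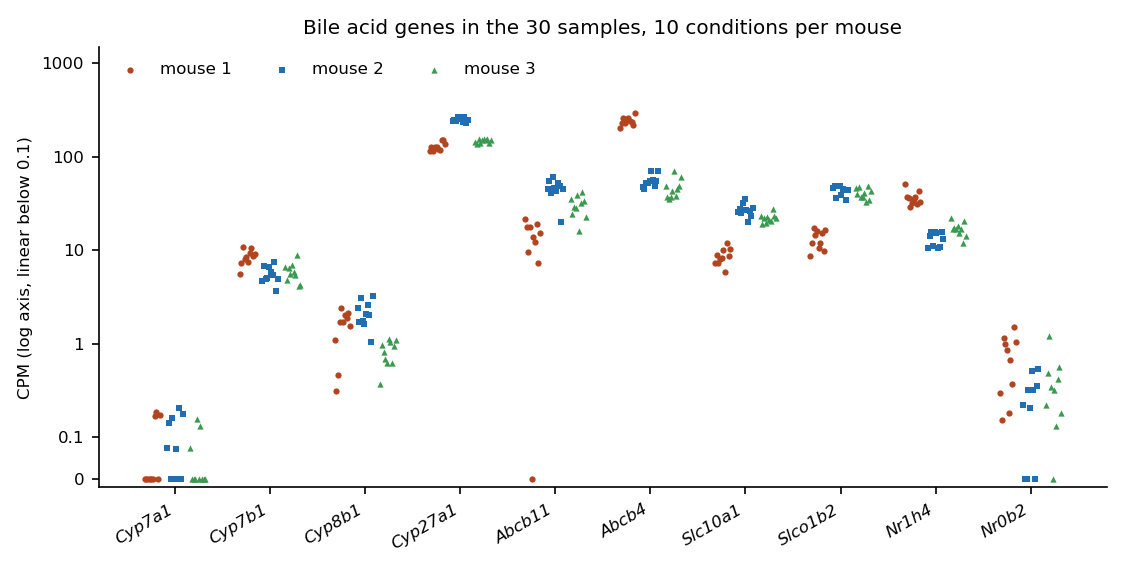
Gene counts in CPM (log axis, linear below 0.1) of the 10 genes in 30 samples, with 1 point per condition and mouse, coloured by mouse. Abcb4 and Nr1h4 of mouse 1 lie above all samples of the other mice, Slc10a1 and Slco1b2 of mouse 1 lie below them, and Cyp7a1 stays at or under 0.204 CPM.

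For most of the tested genes the largest differences lay between the mice, not between the conditions. Each mouse was 1 hepatocyte preparation, so these differences are described and not tested. Of the variance of log2 CPM over the 30 samples, 95.6% lay between mice for Abcb4, 94.7% for Cyp27a1, 91.9% for Slco1b2, 91.4% for Slc10a1 and 87.4% for Nr1h4. The median over all genes tested was 28.7%. Cyp7b1 (47.3%), Cyp8b1 (45.1%) and Abcb11 (42.7%) were also above that median. Between conditions the share ran from 1.76% for Cyp27a1 to 28.9% for Cyp7b1, against a median of 25.7%.

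Abcb4 had a median of 239 CPM over the 10 conditions of mouse 1 (205 to 297), against 54.0 CPM in mouse 2 (45.0 to 71.1) and 44.3 CPM in mouse 3 (35.8 to 70.7). Nr1h4, the FXR gene, had a median of 35.9 CPM in mouse 1 (29.1 to 51.5), 13.7 CPM in mouse 2 (10.6 to 15.9) and 17.0 CPM in mouse 3 (12 to 22.2). Both uptake carriers went the other way. Slc10a1 had a median of 8.48 CPM in mouse 1 (5.95 to 12) and of 26.7 and 22.2 CPM in mice 2 and 3 (19.0 to 35.8). Slco1b2 had a median of 13.4 CPM in mouse 1 (8.81 to 17.3) and of 45.0 and 40.4 CPM in mice 2 and 3 (32.9 to 49.5). For these 4 genes the 10 samples of mouse 1 did not overlap the 20 samples of the other mice. That is 4 of 8 members, where 5.73% of 12166 genes were separated in this way.

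Cyp27a1 was highest in mouse 2, with a median of 248 CPM (228 to 268) against 127 CPM in mouse 1 (115 to 153) and 151 CPM in mouse 3 (138 to 156). It was the 1 member of 8 by which mouse 2 stood apart, where 3.48% of genes did. No member separated mouse 3 (0.74% of genes did). Mice 1 and 2 carry the same label genotype. A part of the genotype in these differences was not tested, since each mouse was 1 preparation.

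Other lists also differed between the mice, and not in mouse 1 alone. The hepatocyte list had a median sum of 79371 CPM in mouse 1, 124854 CPM in mouse 2 and 101343 CPM in mouse 3. The sums of mouse 1 (up to 95446 CPM) and mouse 3 (92831 to 111016 CPM) overlapped, and those of mouse 2 (from 117300 CPM) lay above both. Most of the sum was Alb, with medians of 68222, 107947 and 89142 CPM. Apob (4031, 3755 and 3599 CPM) and Hnf4a (587, 574 and 460 CPM) had their highest median in mouse 1, and the other genes of the list in mouse 2. The interferon list (9 genes) had medians of 488, 209 and 367 CPM, and its sums in mouse 1 (399 to 591 CPM) and mouse 3 (293 to 473 CPM) overlapped. The bile duct list (7 genes) summed to between 207 and 279 CPM in mouse 1 and between 59.8 and 104 CPM in the other mice. Within it Spp1 had medians of 152, 8.22 and 14 CPM, while Krt19 and Krt7 were near 0. The stellate cell list (6 genes) summed to between 20.4 and 34.0 CPM in mouse 1, 122 and 153 CPM in mouse 2, and 60.4 and 82 CPM in mouse 3. Much of this sum was Reln, with medians of 13.4, 119 and 33.8 CPM. Dcn (14.1, 12.2 and 35.3 CPM) and Lrat (0.691, 0.455 and 1.83 CPM) were higher in mouse 1 than in mouse 2. Des, Col1a1 and Pdgfrb were at most 1.7 CPM. The part of these differences in the levels of the bile acid genes was not tested. In cultures measured in bulk, fewer cells of a type and less RNA per cell cannot be told apart.

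**Figure D2:**
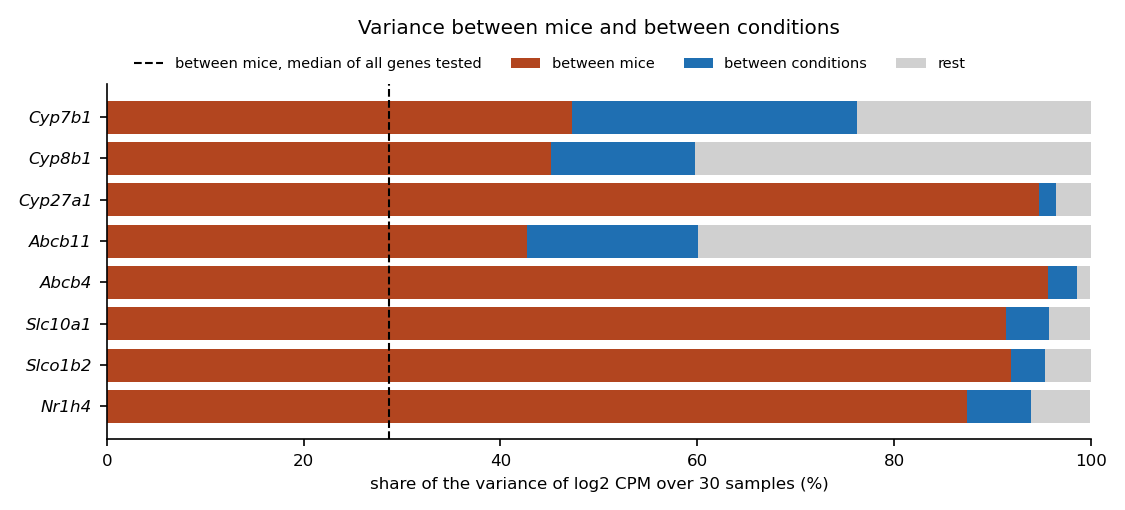
Share of the variance of log2 CPM over 30 samples that lay between the 3 mice, between the 10 conditions, and the rest, for the 8 genes tested. The dashed line marks the between-mouse share of the median gene (28.7%), and all 8 genes lie above it, up to 95.6% for Abcb4.

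GK overexpression alone was first compared with the 5 combined conditions of endogenous GK, the comparison by which the study sought the effect of GK with less weight on the vector. In the model without a mouse term 0 of 8 members passed the test (edgeR, adjusted p under 0.05 with a change of at least 30%), where 0.427% of 12177 genes did. At an unadjusted p under 0.05 there were again 0 members, where 7.8% of genes were, and DESeq2 called 0. The median log2 fold change of the members was -0.03, ranging from -0.37 (Abcb11) to 0.30 (Abcb4 and Cyp8b1), against -0.01 over all genes tested. Standard errors ran up to 0.73 because the spread between mice entered them.

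Since the 10 conditions of a mouse come from 1 preparation, the same comparison was also fitted with the mouse as a block. Then 1 member of 8 passed, and it was Abcb4, where 1.99% of all genes passed (1.3% as raised). Abcb4 rose 1.4-fold with GK overexpression alone (95% interval 1.23 to 1.61, log2 fold change 0.49, SE 0.10, edgeR adjusted p = 0.0036), and it was higher in 3 of 3 mice. The log2 differences in mice 1, 2 and 3 were 0.15, 0.50 and 0.81, so the size of the rise differed between mice. In this fit the 5 endogenous-GK conditions were pooled as 1 group. Its SE and interval come from the spread of samples within mice, and not from these 3 differences alone. Without the block the same difference had a log2 fold change of 0.30 (SE 0.73, edgeR adjusted p = 1). The S phase list (10 genes of DNA replication) also moved in the blocked fit, with 3 of 10 genes lowered, as did 1 of the 3 tested genes of the bile duct list. The S phase list summed to between 233 and 401 CPM with GK alone and between 615 and 768 CPM with the 4 GKRP vectors. The part of these lists in the rise of Abcb4 was not tested. Against untreated hepatocytes, which had between 194 and 369 CPM of the S phase list, Abcb4 differed by 0.50 with the block.

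Abcb4 lies on chromosome 5 of GRCm39, from 8943604 to 9011999 on the plus strand, and 92.6% of its reads were assigned to the protein-coding transcript Abcb4-201. The 250 bases before its start and those before Cyp27a1-201 (plus strand), the most abundant member and the one that moved least between conditions, are shown because Abcb4 was the 1 member called and Cyp27a1 is a contrast to it. They were read from the GRCm39 genome at chr5:8943354-8943603 and chr1:74752095-74752344. Capitals mark the E box CACGTG, which glucose-responsive and circadian factors can bind, and the nuclear receptor motif AGGTCA was searched as well, on both strands.
Abcb4: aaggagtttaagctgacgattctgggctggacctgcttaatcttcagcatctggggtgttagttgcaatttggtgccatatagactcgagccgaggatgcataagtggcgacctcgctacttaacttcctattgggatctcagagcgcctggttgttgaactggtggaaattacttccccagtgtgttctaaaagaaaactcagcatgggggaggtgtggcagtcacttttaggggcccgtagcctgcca
Cyp27a1: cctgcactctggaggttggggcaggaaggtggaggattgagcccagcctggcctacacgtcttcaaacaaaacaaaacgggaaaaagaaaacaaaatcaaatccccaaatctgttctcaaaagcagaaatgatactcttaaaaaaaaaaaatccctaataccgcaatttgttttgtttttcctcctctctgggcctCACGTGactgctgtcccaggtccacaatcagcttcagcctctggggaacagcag
The window of Cyp27a1 holds 1 E box, from 54 to 49 bases before the start, and that of Abcb4 holds neither motif. Over 21770 protein-coding genes, windows of the same length held CACGTG in 6.26% and AGGTCA in 13.1% of cases. Among the other members, Nr0b2 had 1 E box, and Cyp7b1, Slc10a1, Slco1b2 and Nr1h4 had 1 AGGTCA each. The windows precede the canonical transcript, which held few of the gene's reads for Slc10a1 (Slc10a1-203, 0.119%) and fewer than another transcript for Nr1h4 (Nr1h4-201, 28.4%). A match is a description of the letters and not a site.

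In mouse 1, Abcb4 was at 205 CPM untreated, 233 CPM with hP, 263 CPM with hL, 230 CPM with mP, 256 CPM with mL and 262 CPM with GK alone. In mouse 2 the same conditions gave 47.2, 45.0, 52.4, 52.6, 55.4 and 71.1 CPM, and in mouse 3 they gave 49.2, 37.5, 35.8, 37.2, 43.1 and 70.7 CPM. GK alone was thus above all 5 conditions of endogenous GK in mice 2 and 3, while in mouse 1 it fell just under hL. Such a separation in at least 2 of 3 mice was found for 11.5% of 12166 genes.

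The separate cultures showed the same order within each mouse. Scaled by library size alone, the 2 GK cultures had 277 and 265 CPM in mouse 1, against 207 and 213 CPM untreated. In mouse 2 they had 65.3 and 66.8 CPM against 43.3 and 47.3 CPM, and in mouse 3 they had 65.1 and 74.4 CPM against 46.7 and 52.2 CPM. Within each mouse both GK cultures were above both untreated cultures. Across mice the groups overlapped widely, since the untreated cultures of mouse 1 were above every GK culture of mice 2 and 3.

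The rise was not called when mouse 2 or mouse 3 was left out of the blocked fit (log2 fold change 0.49 with adjusted p = 0.149, and 0.33 with adjusted p = 0.258, edgeR). It was called without mouse 1 (0.66, adjusted p = 0.00317) and without the GK culture of mouse 3 that had raised Gckr (0.52, adjusted p = 0.00306). Against untreated hepatocytes alone, Abcb4 had a similar difference with the block (log2 fold change 0.50, SE 0.13, 3 of 3 mice higher), which did not pass the edgeR test (adjusted p = 0.17, and 0.147 without that GK culture). In the same comparison DESeq2 with the block did call it (adjusted p = 0.0268).

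**Figure D3:**
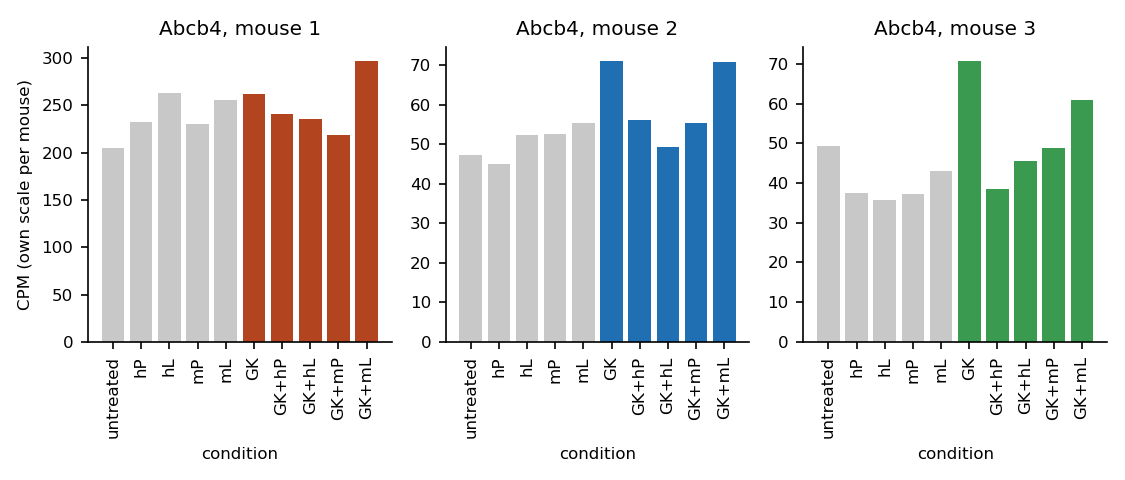
Abcb4 gene counts in CPM in the 10 conditions of each mouse, with an own scale starting at 0 for each mouse, grey bars for endogenous GK and coloured bars for the GK vector. GK alone is above the 5 grey bars in mice 2 and 3, and GK+mL is the highest of the 4 conditions with GK and a GKRP vector in every mouse.

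The other tested members showed no call in either fit when GK alone was compared with untreated hepatocytes. Without the mouse term 0 of 8 members passed (0.00821% of genes did), and with the block 0 of 8 passed (0.361% of genes did). Cyp27a1 was at 168 ± 66.0 CPM untreated and 176 ± 68.2 CPM with GK (SD, n = 3), and its log2 fold change with the block was 0.08 (SE 0.09). Slc10a1 was at 18.9 ± 10.0 and 19.4 ± 8.49 CPM, and Slco1b2 at 33.6 ± 21.5 and 30.3 ± 17.1 CPM. Cyp7b1 was at 5.67 ± 0.955 and 6.39 ± 0.986 CPM, and Cyp8b1 at 1.29 ± 1.03 and 1.65 ± 0.499 CPM. Cyp27a1 was higher with GK in 3 of 3 mice, by 0.08, 0.06 and 0.08 on the log2 scale, and Abcb4 was the other member higher in each mouse, where 35.3% of genes had 1 direction in 3 of 3 mice. The blocked intervals of Cyp27a1, Slc10a1, Slco1b2, Cyp7b1 and Cyp8b1 all included 0.

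Nr1h4 was at 28.1 ± 21 CPM untreated and 22.1 ± 11.8 CPM with GK alone. It was lower with GK in mouse 1 (51.5 against 35.7 CPM) and mouse 3 (22.2 against 15.5 CPM) and higher in mouse 2 (10.6 against 15.2 CPM). The log2 fold change was -0.34 without the block (SE 0.60, edgeR adjusted p = 1) and -0.22 with it (SE 0.16, adjusted p = 1). Transcript Nr1h4-203 held 71.5% of the reads of the gene and Nr1h4-201 held 28.4%.

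The 4 GKRP vectors together, at endogenous GK, gave 0 of 8 members called against untreated hepatocytes, where 1.89% of genes passed, and 0 of 8 with the mouse as a block, where 4.16% did. The median log2 fold change of the members was 0.05, ranging from -0.37 (Nr1h4) to 0.27 (Cyp7b1), against 0.00 over all genes. Nr1h4 was at 51.5 CPM untreated in mouse 1 and between 29.1 and 37.2 CPM with the 4 vectors, and in mouse 3 at 22.2 CPM untreated and between 16.9 and 18.4 CPM with them. In mouse 2 it was at 10.6 CPM untreated and between 11.2 and 15.9 CPM with the vectors, so the direction differed between mice. The S phase list moved in this comparison, with 8 of 10 genes raised, from between 194 and 369 CPM in sum untreated to between 615 and 768 CPM with a GKRP vector. With the block 1 of the 3 tested genes of the bile duct list was raised as well. The part of these lists in the values of the bile acid genes was not tested.

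**Figure D4:**
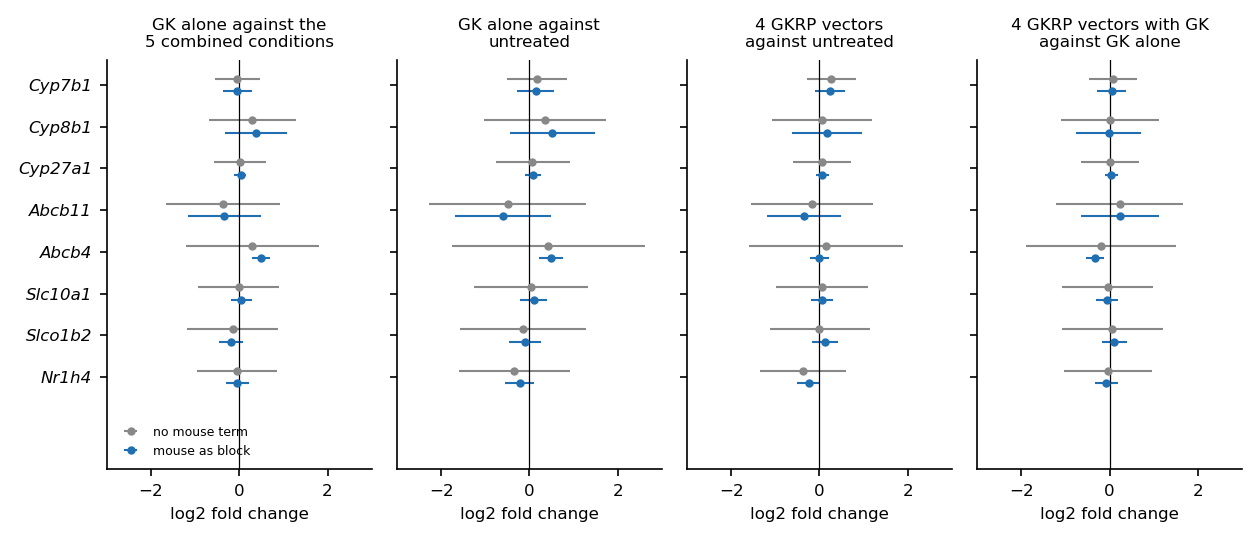
Log2 fold changes with 95% intervals of the 8 tested genes in 4 comparisons, without a mouse term (grey) and with the mouse as a block (blue). The intervals narrow with the block, and that of Abcb4 with GK alone against the 5 combined conditions (0.29 to 0.69) does not include 0. Nor do those of Abcb4 with GK alone against untreated (0.22 to 0.77) and with the 4 vectors and GK against GK alone (-0.54 to -0.12). Neither of these last was called.

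The GKRP vectors with GK were compared with GK alone, to ask whether GKRP counters GK. These cultures received a further vector, so GKRP and the added virus cannot be told apart here. Without the mouse term 0 of 8 members passed against GK alone (1.61% of genes did), and with the block 0 of 8 passed both the p and the fold threshold (4.34% of genes did). Abcb4 had an adjusted p of 0.0453 in the blocked edgeR fit, with a fold change of 0.794 (95% interval 0.686 to 0.919) that missed the threshold of 0.7, and it was lower in 3 of 3 mice. This p was 0.286 without mouse 2 and 0.315 without mouse 3, and it was 0.0359 without mouse 1 and 0.035 without the GK culture of mouse 3 with raised Gckr. Both this comparison and the comparison of GK alone with endogenous GK use the same GK samples. The S phase list moved here too, with 8 of 10 genes raised, and with the block 1 of 8 hepatocyte genes and 1 of the 3 tested bile duct genes were raised.

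The 4 vectors were also compared singly for Abcb4. With the block, the log2 fold change against GK alone was -0.45 with hP (SE 0.13, edgeR adjusted p = 0.0534), -0.45 with hL (adjusted p = 0.0674) and -0.40 with mP (adjusted p = 0.0624). With mL it was -0.03 (95% interval -0.30 to 0.25, adjusted p = 0.967). In mouse 1 Abcb4 was at 262 CPM with GK alone, 241 CPM with GK+hP, 236 CPM with GK+hL, 219 CPM with GK+mP and 297 CPM with GK+mL. In mouse 2 the values were 71.1, 56.2, 49.3, 55.5 and 70.9 CPM, and in mouse 3 they were 70.7, 38.4, 45.5, 48.7 and 61.0 CPM. GK+mL was the highest of the 4 vector conditions in each mouse. The direct comparison of GK+mL with GK+mP gave a log2 difference of 0.37 with the block (SE 0.13, 3 of 3 mice higher), which did not pass (edgeR adjusted p = 0.402).

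The GK effect in the presence of the 4 GKRP vectors was not called for any member, in either fit (0 of 8, where 0.0164% and 0.14% of genes passed). For Abcb4 the log2 fold change was 0.16 with the block (SE 0.07, 3 of 3 mice higher, edgeR adjusted p = 0.237). The difference between the GKRP effect with GK and that at endogenous GK was called for 0 of 8 members and for 0 of 12177 genes. In edgeR without the block 178 genes had an unadjusted p under 0.05 there, 0 of them members. With the block Abcb4 had a difference of -0.34 (SE 0.15, edgeR adjusted p = 1), lower in 3 of 3 mice.

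The exchange of proline (446P) for leucine (446L) was compared as the mean of human and mouse GKRP. With GK, 0 of 8 members were called between GKRP-446L and GKRP-446P (0% of genes in the model without the mouse, 0.345% with the block). At endogenous GK 0 of 8 were called as well (0% and 0.0821% of genes).

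The values with GK are given because 6 of 8 members had the same direction in 3 of 3 mice, where 28.6% of genes did. Slc10a1 was at 21.2 CPM on average with GKRP-446L and 17.0 CPM with GKRP-446P, with log2 differences of 0.61, 0.35 and 0.18 in the 3 mice. Slco1b2 was at 35.5 against 28.3 CPM, with differences of 0.54, 0.16 and 0.44. In this mean of human and mouse GKRP the 2 uptake carriers were both higher with GKRP-446L in each mouse. Nr1h4 was at 19.1 against 24.3 CPM, with differences of -0.33, -0.10 and -0.51, and was the 1 member lower in each mouse. Cyp7b1, Cyp27a1 and Abcb4 were higher in each mouse, by a blocked log2 difference of 0.30 (SE 0.15), 0.10 (SE 0.06) and 0.19 (SE 0.09). By species, only Cyp7b1 kept its direction in each mouse with both human and mouse GKRP. Slco1b2 was at -0.05 in mouse 2 with human GKRP, and Slc10a1 at -0.07 in mouse 3 with mouse GKRP. The blocked difference of Abcb4 was 0.00 (SE 0.13) with human GKRP and 0.37 (SE 0.13) with mouse GKRP. With the block the adjusted p of edgeR was 0.268 for Slc10a1, 0.367 for Slco1b2 and 0.466 for Nr1h4, so none of these differences passed the test across all genes.

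The same exchange at endogenous GK was set beside these values, and the difference between them was not tested. Slc10a1 differed by a log2 value of 0.04 with the block (95% interval -0.19 to 0.27), Slco1b2 by 0.08 (-0.19 to 0.34) and Nr1h4 by 0.15 (-0.10 to 0.39), and 2 of 8 members had 1 direction in 3 of 3 mice, where 28.8% of genes did. Between GK+hL and GK+hP the smallest adjusted p of a member was that of Slc10a1 (blocked log2 difference 0.58, SE 0.16, edgeR adjusted p = 0.326). In the 3 mice Slc10a1 was at 12, 26.5 and 27.6 CPM with GK+hL and at 5.95, 20 and 20.6 CPM with GK+hP. These GK+hP values were the lowest of the 10 conditions in mice 1 and 2.

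Over the 16 comparisons of single vectors 0 members were called in either fit. Against untreated hepatocytes, the share of genes called without and with the block was 0.78% and 2.46% for hP, 0.879% and 2.97% for hL, 1.12% and 3.31% for mP, and 1.05% and 3.16% for mL. Against GK alone it was 0.879% and 3.27% for GK+hP, 0.599% and 2.54% for GK+hL, 1.64% and 6.36% for GK+mP, and 0.591% and 2.24% for GK+mL. For the GK effect it was 0% in both fits with hP, hL and mP, and 0.0164% and 0.246% with mL. For GKRP-446L against GKRP-446P by species it was 0% in both fits at endogenous GK, 0% and 0.131% with GK and human GKRP, and 0.0164% and 0.214% with GK and mouse GKRP. Over all 24 comparisons, 0 of 192 tests of a member had an unadjusted p under 0.05 without the block, in edgeR as in DESeq2. Over all genes 5.12% of tests did in edgeR. With the block 23 of 192 member tests did (12%), where 11.7% of all tests did, and 1 was called.

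Abcb11 varied more within mice than the other tested members. It lies on chromosome 2 (69068544 to 69173315, minus strand). In mouse 1 it ran from 0 CPM (mL) to 21.8 CPM (untreated), in mouse 2 from 20.4 CPM (GK+mP) to 60.6 CPM (mP) and in mouse 3 from 16 CPM (GK) to 41.7 CPM (GK+hL). In the mL culture of mouse 1, Abcb11 was the 1 gene listed at 0 among those with at least 20 reads in each of the other 11 cultures of the mouse. The 2 main transcripts, Abcb11-202 and Abcb11-201, each took between 0% and 100% of the reads of the gene depending on the library.

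Transcripts that the annotation used here pairs with no gene were searched for the 1 most opposite to Abcb11. The 111 candidates had mean levels in a set range relative to that of Abcb11. The transcript with the lowest correlation, ENSMUST00000180142, rose where Abcb11 fell. The correlation was -0.75 over 36 cultures, measured within mice, and the next lowest was -0.48. In the mL culture of mouse 1 it had 116 reads while Abcb11 had 0. With its reads added to those of Abcb11, the SD of log2 values within mice fell from 0.83 to 0.27, and mL of mouse 1 had 19.9 CPM. The transcript was picked for moving opposite to Abcb11, so the lower SD is no separate support for the sum. The gene of this transcript is not given in the sources used here, so the sum is an alternative chosen after seeing the data.

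Neither count gave a call for Abcb11. With the mouse as a block, GK alone against untreated hepatocytes was -0.59 on the log2 scale as counted (SE 0.52) and -0.27 with the transcript added (SE 0.18), and without the block it was -0.49 (SE 0.86) and -0.28 (SE 0.56). The edgeR adjusted p was 1 in all 4 fits. It was lower with GK in 3 of 3 mice as counted, at 21.8 against 13.9 CPM, 45.5 against 43.5 CPM and 35.9 against 16 CPM. With the transcript added these pairs were 23.3 against 21.1 CPM, 55.6 against 48.5 CPM and 42.8 against 30.6 CPM, again lower in each mouse and closer together.

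**Figure D5:**
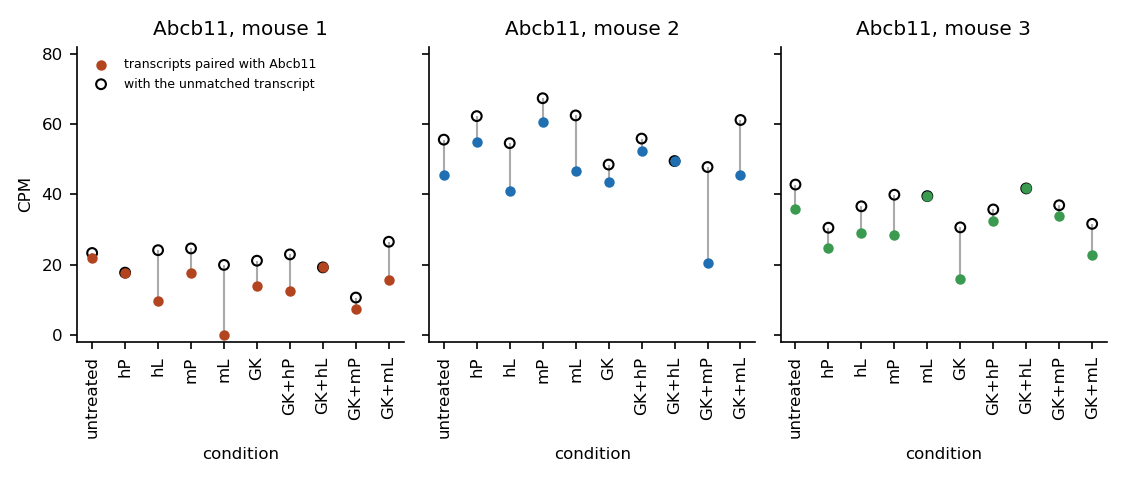
Abcb11 gene counts in CPM in the 10 conditions of each mouse from the transcripts paired with the gene (filled) and with 1 unmatched transcript added (open). The mL sample of mouse 1 moves from 0 to 19.9 CPM, and the open points vary less within each mouse.

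Slc10a1 also had reads that moved between transcripts, Slc10a1-202 and Slc10a1-201 each taking between 0% and 100% of a library's reads for the gene. Its gene sum was steadier, with a within-mouse SD of 0.20 in log2 units over the cultures, against 0.83 for Abcb11. For Cyp27a1 this SD was 0.09, the lowest of the 8 members.

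The wider list of bile acid genes held 45 further genes, 16 of synthesis and conjugation, 12 of transport, 13 of regulation and 4 of detoxification. Of these, 42 were tested and Slc51a, Slc51b and Gpbar1 were too low. In the model without the mouse 0 of 42 passed in any of the first 5 comparisons. With the block 1 passed for the 4 vectors against untreated hepatocytes and 1 for the 4 vectors with GK against GK alone, where 4.16% and 4.34% of all genes passed. These shares of the list are not above those of all genes.

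Amacr, a racemase that prepares the bile acid side chain for shortening, was at 4.23 CPM untreated and 6.17 CPM with the 4 vectors (blocked log2 fold change 0.53, SE 0.14, 3 of 3 mice higher, edgeR adjusted p = 0.0226). Cyp2b10, a detoxifying P450 and a target of the nuclear receptor CAR, was at 90.6 CPM with GK alone and 124 CPM with GK and the vectors (blocked log2 fold change 0.70, SE 0.19, edgeR adjusted p = 0.0224). Its difference was 1.58 in mouse 1 and 0.28 and 0.35 in mice 2 and 3. The median log2 fold change of the 42 genes was 0.06 and -0.03 in these 2 comparisons, against 0.00 and 0.01 over all genes.

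After each mouse's own mean was removed, the genes most like Abcb4 over the 30 samples included Glul (Pearson r = 0.87) and Klf10 (0.84). Those most like Cyp27a1 were Ndrg2 (0.80), Ahsg (0.78) and Apoh (0.78). For Slco1b2 they were Mat1a (0.82), Slc27a2 (0.79) and Klhl24 (0.72), and for Slc10a1 they were Ndrg2 (0.70), Zfp97 (0.68) and Cyp3a11 (0.68). For the other 4 genes the highest value was 0.73 (Cyp8b1 with Yipf2), 0.72 (Abcb11 with Rfesd), 0.70 (Cyp7b1 with Nampt) and 0.63 (Nr1h4 with Aldh1a1). The samples of a mouse share a preparation and the conditions share vectors, so these are descriptions.

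The members did not move as 1 group within mice. Over the 30 samples the closest pair was Cyp27a1 and Slc10a1 (r = 0.65), followed by Cyp7b1 and Slco1b2 (0.59). Abcb4 and Abcb11, the 2 canalicular pumps, were at -0.17, and the 2 uptake carriers Slc10a1 and Slco1b2 at 0.33. Nr1h4 was opposite to Slco1b2 (-0.58) and near 0 with Abcb11 (0.07).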

How the data were processed

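Primary mouse hepatocytes were isolated by collagenase perfusion, and RNA was sequenced from 36 cultures. The authors deposited, for each culture, Salmon 1.4.0 expected counts and TPM per transcript of GRCm39 (Gencode), made from untrimmed reads after FastQC, together with effective transcript lengths in bases, which served for a length offset. Library totals were between 3924674 and 10046158 reads.

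Transcripts were paired with genes through a later Gencode annotation of GRCm39, which matched 137570 of 139225 transcripts (98.8%). Those left without a gene took 0.392% to 0.639% of each library. Expected counts were summed per gene and over the 2 cultures of a mouse in 1 condition, and rounded. Genes were filtered with filterByExpr, scaled by TMM and fitted with the quasi-likelihood test of edgeR 4.0.16 (R 4.3.3) over 12177 genes, with Benjamini-Hochberg adjustment. Calls needed an adjusted p below 0.05 and a fold change that reached 1.3 upwards or 0.7 downwards. The model had no mouse term, since the methods of the study name none. GK alone against the 5 combined conditions was fitted on all 30 samples in 6 groups, the 5 endogenous-GK conditions being pooled as 1 group. The other comparisons were fitted on the same samples with all 10 conditions kept apart. CPM are TMM-scaled, except those of single cultures, which are unscaled. Fits were tested on simulated data with known changes.

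The mouse numbers pair the samples because the labels name the animal. Over 135 pairs of samples of the same mouse, the mean correlation of deviations from the condition means was 0.223, and 82.2% of pairs were over 0.1. It was -0.149 between mice. DESeq2 1.42.0, other filters and scalings, an offset for transcript length and the omission of each mouse were tried as well.

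The members and lists were chosen with earlier results of these data known. The text names all 10 members, Gckr, the genes of the wider bile acid list called in any of the first 5 comparisons, and the 3 genes most correlated with each tested member (for 4 members only the closest is printed). Some values that this rule names are not reported here. Lists of macrophage and endothelial genes had sums of 222 to 335 and 50.5 to 113 CPM. Mice are the replicates, and each was 1 preparation.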

Additional observations from a re-analysis of the deposited data

Results flagged for a closer look

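Among 72 pairs of effects, 2 went one way in every mouse under one condition and the opposite way in every mouse under another. How often this happened over all genes was not counted, so the number of such pairs is not read as a result. For Abcb11 the GK effect was -0.64, -0.07 and -1.15 on the log2 scale in the 3 mice without a GKRP vector and 0.98, 0.27 and 0.53 with hL, a difference of 1.21. The difference itself did not pass the test (edgeR adjusted p = 1, and 0.888 with the mouse as a block). With the unmatched transcript added to Abcb11, GK with hL gave 19.2 against 24.1 CPM, 49.5 against 54.6 CPM and 41.7 against 36.6 CPM with hL alone, which is lower in 2 of 3 mice and no longer opposite. For Nr1h4 the difference between mL and mP was 0.15, 0.50 and 0.11 at endogenous GK and -0.41, -0.25 and -0.53 with GK, a difference of -0.65. Its test gave an adjusted p of 1 in edgeR and of 0.859 with the block (SE 0.24). In both tests 0 of 12177 genes were called. The 16 groups of 6 cultures examined for a culture far from the others held none, where chance gives about 1 in 20. Each group held 2 cultures of each of 3 mice. The spread between mice entered it, so this check could miss a culture that differed only within its mouse.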

How the results depend on the processing

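Of 370 values under other settings, 245 counts and 112 values of single genes kept their direction and their side of the threshold. The count of members raised with GK alone against the 5 combined conditions was 1 in place of 0 with the mouse as a replicate block, and 1 with DESeq2 and the block. Against untreated hepatocytes it was 1 with DESeq2 and the block. The gene was Abcb4 each time, and the replicate block changed no other call of a member. The log2 value of Abcb4 for the 4 vectors against untreated hepatocytes turned to -0.12 without mouse 1, and with the block to -0.14 without mouse 1 and -0.06 without mouse 2. Its GK effect over the 4 vectors turned to -0.13 with the transcript length offset, and Abcb11 for the vectors with GK against GK alone turned to -0.15 without mouse 3. With 1 mouse left out, these values of Abcb4 for the vectors ran from -0.12 to 0.20 without the block, and those of Abcb11 from -0.15 to 0.61. None of these 5 values passed a test, and the cause was not tested. DESeq2 with the block, the block with a mouse left out, the omission of the mL culture of mouse 1 or of the GK culture of mouse 3, and the added Abcb11 transcript were chosen after seeing the data. Depth limits Cyp7a1, Nr0b2 and, with few reads per sample, Cyp8b1.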

Other observations

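Slc10a2, known as the bile acid carrier of the ileum and of bile duct cells, was placed in the bile duct list. It had medians of 53.3, 76.0 and 55.7 CPM in the 3 mice (32.0 to 85.5 over the 30 samples), while Krt19, Krt7, Epcam and Cftr were at most 2.04 CPM. Of the other members of the list, Sox9 had medians of 12.9, 8.4 and 12.9 CPM and Spp1 of 152, 8.22 and 14 CPM.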
